A study of Mus musculus with 18 samples.

Results

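*Slco4a1*, *P2rx7*, *Pla2g5* and *Csgalnact1* are 4 of the 24333 gene symbols that were counted in both 168FARN and 67NR cells, and they were chosen because their read counts were raised together with *Mmp3* in *Kmt2c* knockout (KO) cells of both lines. The KO-over-WT ratio in *Kmt2c* KO cells therefore describes how the genes were chosen and is given without a test. The choice had no numerical threshold. The count tables spell them SLCO4A1, P2RX7, PLA2G5 and CSGALNACT1. A gene is called here where its adjusted p is below 0.1 and its log2 fold change is beyond 0.6 in either direction. As a description of that choice, 11 genes passed both limits as higher in *Kmt2c* KO cells of both lines, and 181 did under a replicate block (the replicate number as a term of the fit). The 4 genes stand in both sets because they were picked from this ratio. In 168FARN the number of genes past both limits as higher ran from 0 to 33 when 1 library was left out, beside 24 with all.

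168FARN and 67NR are poorly metastatic mouse mammary tumour lines that come from the same spontaneous BALB/c-background tumour. mRNA was sequenced from 3 genotypes of each line (WT, *Kmt2c* KO, *Kmt2d* KO) with 3 replicates per genotype, which gives 6 groups and 18 libraries. *Kmt2c* and *Kmt2d* encode related histone H3 lysine methyltransferases that mark enhancers. The study asked what the loss of either enzyme does to the chromatin and the transcripts of tumour cells. KO cells were pools, sorted after transient transfection of Cas9 with 3 sgRNAs directed at the first exon, so a KO group is a mixture of edited cells and not 1 clone. The WT columns of 168FARN are named for a control sgRNA, those of 67NR only as WT, and no group received a drug.

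The 4 genes encode proteins of the cell surface, the secretory route and the Golgi. *Slco4a1* encodes an organic anion transporter of the SLCO family that carries thyroid hormones, prostaglandins and bile salts across the plasma membrane. *P2rx7* encodes a cation channel that opens at high extracellular ATP and is best known for triggering the NLRP3 inflammasome and IL-1β release in macrophages. *Pla2g5* encodes a secreted phospholipase A2 that frees fatty acids such as arachidonic acid from phospholipids, the first step towards prostaglandins and leukotrienes. *Csgalnact1* encodes the Golgi enzyme that adds the first N-acetylgalactosamine to a proteoglycan's linker and so starts a chondroitin sulphate chain, where heparan sulphate enzymes would start the alternative chain. *Mmp3*, the reference for the choice, encodes the secreted protease stromelysin-1.

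Read counts summed over genes ranged from 14359760 to 43427382 per library in 168FARN and from 40951775 to 79251530 in 67NR. The edits target the first exon and need not lower the transcript, so transcript levels do not check the labels. *Kmt2c* lay at 48.0 to 98.5 CPM (counts per 1e6 counted reads, TMM-scaled) in 168FARN *Kmt2c* KO against 45.5 to 117 CPM in WT, and at 82.9 to 92.2 against 55.7 to 64.7 CPM in 67NR. *Kmt2d* lay at 139 to 299 CPM in 168FARN *Kmt2d* KO against 106 to 165 CPM in WT, and at 91.0 to 141 against 84.7 to 114 CPM in 67NR. The replicate 3 libraries stood apart from replicates 1 and 2 in all 6 groups, and they deviated from their group means together. For the 4 genes, each call below is therefore also given where it changes under the replicate block or with replicates 1 and 2 only. For lists and neighbours such changes are given only in part. The 5 epithelial markers summed to 2096 to 3403 CPM in 67NR WT, 432 to 758 CPM in 67NR *Kmt2c* KO and 732 to 1525 CPM in 67NR *Kmt2d* KO. The 5 mesenchymal markers summed to 3168 to 6063 CPM in 67NR WT, 3771 to 4947 CPM in *Kmt2c* KO and 3564 to 5118 CPM in *Kmt2d* KO. Within that list *Vim* was higher in both KO groups (mean 615 CPM in WT, 3144 and 2665 in KO) and *Fn1* lower (4444, 1068 and 1427 CPM). In 168FARN only *Krt8* of the 5 epithelial markers exceeded a mean of 1 CPM, and *Epcam* had no read in any library. The 8 leukocyte markers summed to 3.75 to 94.8 CPM in 168FARN and 22.7 to 81.6 CPM in 67NR, mostly *Cd68*. *Ptprc*, the common leukocyte marker, stayed at or under 0.151 CPM in every library, while *Lyz2* had means of 0.320 CPM in 67NR WT, 2.21 CPM with *Kmt2c* lost and 2.62 CPM with *Kmt2d* lost.

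In mm9, *Slco4a1* lies on the plus strand at chr2:180190950-180209572, *P2rx7* on the plus strand at chr5:123093920-123141441, *Pla2g5* on the minus strand at chr4:138355159-138419397 and *Csgalnact1* on the minus strand at chr8:70880680-71259045. Their summed exons are 4799, 5524, 2884 and 4774 bases long. *Pla2g5* overlaps *Pla2g2a* on the other strand and *Csgalnact1* overlaps *1700125H03Rik*. The strand setting of the read counting is not stated. *Pla2g2a* held 2 reads in all 18 libraries and *1700125H03Rik* none, so few reads were assigned to either partner.

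The sequence upstream of the outermost annotated start is shown for the 3 genes that RefSeq's table of starts held, to let the 3 promoters be set side by side. They are the 250 bases before the start, read 5′ to 3′ on the gene's strand in GRCm38.p6, a later build than the mm9 of the counts: chr2:180455995-180456244 for *Slco4a1* (plus strand), chr5:122643677-122643926 for *P2rx7* (plus strand) and chr4:138863470-138863719 for *Pla2g5* (minus strand). Capitals mark matches on either strand to 4 motifs. They are the AP-1 type motif, spelled TGANTCA, the TATA box with its letters TATAAA, the GC box, searched as GGGCGG or in reverse, and the CCAAT box, whose name spells it. No 2 of the marked matches overlap.
Slco4a1: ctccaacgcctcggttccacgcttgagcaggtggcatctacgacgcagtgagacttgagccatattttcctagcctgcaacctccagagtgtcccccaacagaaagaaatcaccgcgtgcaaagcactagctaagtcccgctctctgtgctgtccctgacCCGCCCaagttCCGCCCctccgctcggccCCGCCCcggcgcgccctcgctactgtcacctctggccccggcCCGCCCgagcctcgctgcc
P2rx7: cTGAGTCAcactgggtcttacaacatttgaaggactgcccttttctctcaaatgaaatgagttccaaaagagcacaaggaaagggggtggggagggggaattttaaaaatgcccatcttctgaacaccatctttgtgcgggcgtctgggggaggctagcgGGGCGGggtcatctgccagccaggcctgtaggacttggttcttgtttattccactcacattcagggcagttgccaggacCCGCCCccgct
Pla2g5: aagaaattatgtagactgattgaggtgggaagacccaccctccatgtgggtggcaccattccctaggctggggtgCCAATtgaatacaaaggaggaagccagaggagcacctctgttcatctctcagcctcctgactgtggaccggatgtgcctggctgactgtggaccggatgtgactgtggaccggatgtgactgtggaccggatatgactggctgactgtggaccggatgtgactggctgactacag

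The 3 upstream sequences had different features. *Slco4a1* held 4 GC boxes and 21 CpG dinucleotides at a GC content of 64.8%, *P2rx7* held 2 GC boxes, 6 CpG and an AP-1 type match that starts 249 bases before the start, and *Pla2g5* held 1 CCAAT box and 5 CpG. Of 32851 annotated starts, 32.74% had a GC box in the same window, 6.749% an AP-1 type match, 33.85% a CCAAT box and 12.37% a TATA box, which none of the 3 had. The median start had 6 CpG and a GC content of 52.4%. *Pla2g5* also carried 5 copies of the 16-base unit tgactgtggaccggat, the first starting 118 bases and the last ending 19 bases before the start. A second start was annotated for each of these genes. Upstream of it *Slco4a1* held 0 GC boxes and 4 CpG, *P2rx7* held 0 GC boxes and 0 AP-1 type matches, and *Pla2g5* held 1 CCAAT box. Which start the cells use was not tested. A match of letters does not show that a factor binds to it.

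*Slco4a1* had the lowest level per length of the 4 in 168FARN WT, at 0.535 ± 0.171 CPM per kb of exon (SD, n = 3). In 168FARN WT it stood at 2.46, 1.80 and 3.43 CPM in replicates 1 to 3, in *Kmt2c* KO at 14.1, 15.03 and 13.6 CPM, and in *Kmt2d* KO at 6.31, 5.94 and 7.50 CPM. The 3 groups did not overlap, with *Kmt2d* KO between the others. For all 4 genes, the separation of *Kmt2c* KO from WT was favoured by the choice, and so was any place of *Kmt2c* KO above *Kmt2d* KO. The share of all genes whose groups lie apart was not counted. In 67NR WT the values were 3.55, 2.79 and 5.70 CPM, in *Kmt2c* KO 7.44, 6.01 and 6.27 CPM, and in *Kmt2d* KO 3.69, 3.64 and 4.62 CPM. Here the lowest *Kmt2c* KO library was just above the highest WT library, and *Kmt2d* KO lay inside the WT range. Ordered by mean, 168FARN *Kmt2c* KO (14.2 ± 0.746 CPM, SD, n = 3) stood alone at the top, followed by 168FARN *Kmt2d* KO (6.58 ± 0.814) and 67NR *Kmt2c* KO (6.57 ± 0.762), whose libraries overlapped, then 67NR WT (4.01 ± 1.51) and 67NR *Kmt2d* KO (3.98 ± 0.550), which overlapped too, and last 168FARN WT (2.57 ± 0.819).

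*P2rx7* separated every KO library from every WT library. In 168FARN WT it stood at 11.5, 13.99 and 7.83 CPM, in *Kmt2c* KO at 58.5, 57.4 and 30.0 CPM, and in *Kmt2d* KO at 53.5, 54.2 and 50.5 CPM. In 67NR WT the values were 10.3, 11.1 and 7.46 CPM, in *Kmt2c* KO 95.8, 96.0 and 53.7 CPM, and in *Kmt2d* KO 70.5, 77.1 and 38.2 CPM. The lowest KO library, replicate 3 of 168FARN *Kmt2c* KO, was still above the highest WT library. By mean the order was 67NR *Kmt2c* KO (81.8 ± 24.4 CPM, SD, n = 3), 67NR *Kmt2d* KO (62.0 ± 20.8), 168FARN *Kmt2d* KO (52.7 ± 2.01) and 168FARN *Kmt2c* KO (48.6 ± 16.2), each overlapping the next, with 168FARN WT (11.1 ± 3.10) and 67NR WT (9.62 ± 1.91) overlapping at the bottom.

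*Pla2g5* differed most between the lines. In 168FARN WT it stood at 20.2, 22.1 and 21.3 CPM, in *Kmt2c* KO at 53.8, 53.6 and 47.9 CPM, and in *Kmt2d* KO at 13.5, 18.5 and 17.6 CPM. In 67NR WT it stood at 0.591, 0.441 and 0.482 CPM, which rest on 50, 30 and 21 reads, in *Kmt2c* KO at 7.40, 6.77 and 7.51 CPM, and in *Kmt2d* KO at 4.76, 3.85 and 5.57 CPM. It is the only one of the 4 whose 6 groups all lay apart: 168FARN *Kmt2c* KO (51.7 ± 3.35 CPM, SD, n = 3), 168FARN WT (21.2 ± 0.957), 168FARN *Kmt2d* KO (16.5 ± 2.62), 67NR *Kmt2c* KO (7.23 ± 0.3996), 67NR *Kmt2d* KO (4.73 ± 0.864) and 67NR WT (0.505 ± 0.0775). Every 67NR library, KO included, was below every 168FARN library. Differences between the lines were common, with 39.2% of all genes called between the WT groups.

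*Csgalnact1* followed one order of genotypes in both lines. In 168FARN WT it stood at 25.9, 26.2 and 23.6 CPM, in *Kmt2c* KO at 55.8, 65.1 and 55.3 CPM, and in *Kmt2d* KO at 46.0, 44.7 and 33.7 CPM. In 67NR WT the values were 7.04, 7.96 and 3.95 CPM, in *Kmt2c* KO 27.2, 30.9 and 25.1 CPM, and in *Kmt2d* KO 23.6, 21.2 and 19.1 CPM. Within each line *Kmt2c* KO was highest, *Kmt2d* KO next and WT lowest, without overlap. The top place of *Kmt2c* KO was favoured by the choice, and the share of all genes in this order was not counted. Across lines, 67NR *Kmt2c* KO (27.7 ± 2.93 CPM, SD, n = 3) overlapped 168FARN WT (25.2 ± 1.38), and the other neighbours in the order of levels lay apart.

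**Figure D1:**
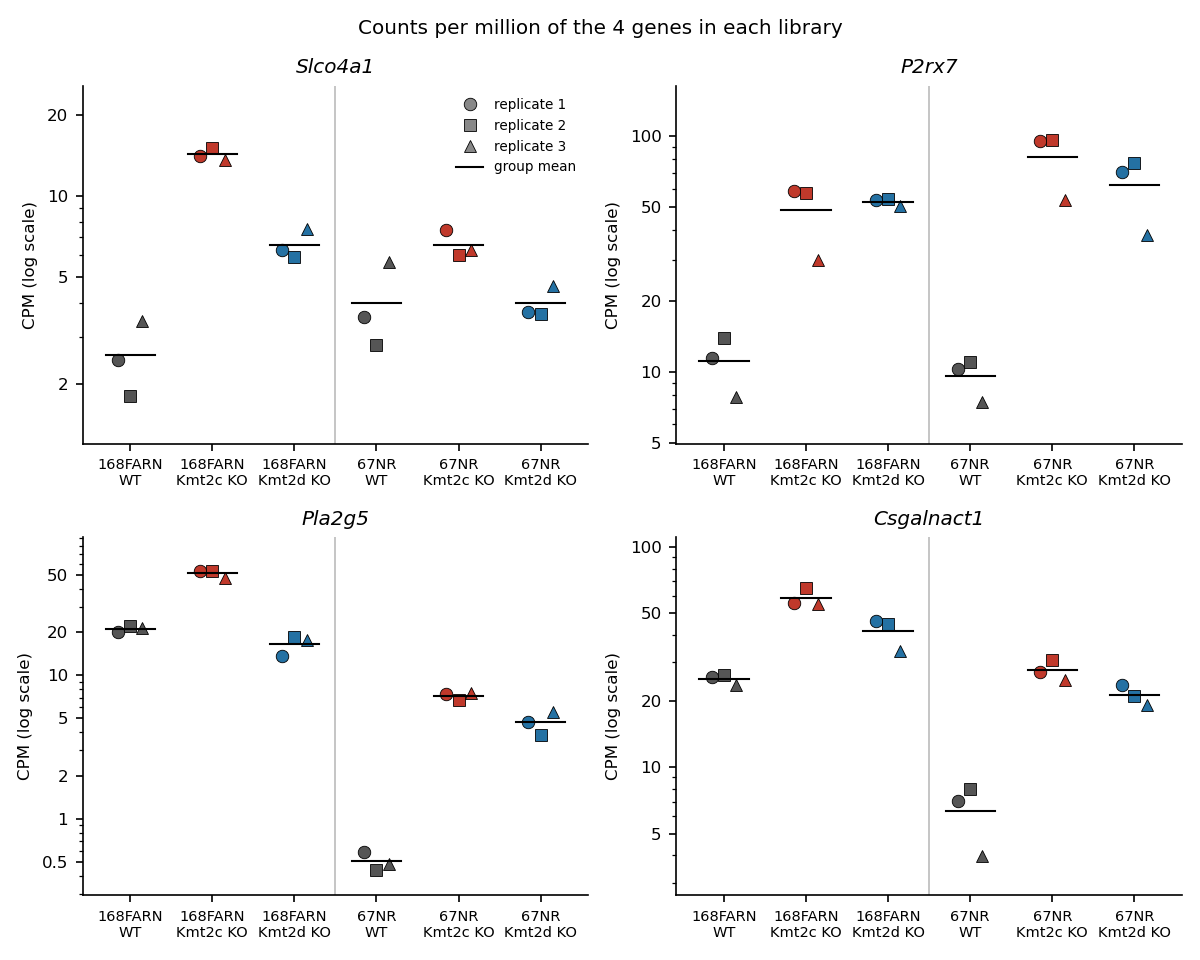
CPM of the 4 genes on a log axis, with 1 point per library, its replicate number as the shape, and a line at each group's mean; grey is WT, red *Kmt2c* KO and blue *Kmt2d* KO. *P2rx7* libraries of all KO groups lie between 30.0 and 96.0 CPM and WT libraries between 7.46 and 13.99 CPM, while *Pla2g5* in 67NR starts from 0.441 to 0.591 CPM in WT.

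The genes were chosen on the ratio of *Kmt2c* KO to WT, where 0.359% of all tested genes were called in 168FARN (0.196% higher) and 35.3% in 67NR (17.9% higher). In 168FARN the log2 fold changes were 2.47 (SE 0.28) for *Slco4a1*, 2.14 (0.31) for *P2rx7*, 1.29 (0.17) for *Pla2g5* and 1.22 (0.17) for *Csgalnact1*, beside 2.63 (0.25) for *Mmp3*. In 67NR they were 0.80 (0.29), 3.17 (0.34), 3.91 (0.26) and 2.21 (0.26), beside 2.31 (0.36) for *Mmp3*. The order of the 4 thus differed by line, with *Slco4a1* first in 168FARN and last in 67NR. Without WT replicate 2 the *Slco4a1* value in 67NR was 0.58. The log2 differences of *Kmt2c* KO from *Kmt2d* KO were 1.10 (0.26) for *Slco4a1*, -0.13 (0.30) for *P2rx7*, 1.63 (0.17) for *Pla2g5* and 0.49 (0.17) for *Csgalnact1* in 168FARN, and 0.73 (0.29), 0.41 (0.32), 0.62 (0.23) and 0.39 (0.25) in 67NR.

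*Kmt2d* KO cells were not used to choose the genes and were tested by quasi-likelihood in edgeR, the p-values being adjusted (Benjamini-Hochberg) over all genes of the line. The WT libraries are those of the *Kmt2c* KO ratio, so both ratios share any deviation of the WT values. In 168FARN *P2rx7* rose 4.81-fold, a log2 fold change of 2.27 (SE 0.31, adjusted p = 0.0487). *Slco4a1* had a log2 fold change of 1.37 (0.27, adjusted p = 0.151), *Csgalnact1* 0.73 (0.17, adjusted p = 0.217) and *Pla2g5* -0.34 (0.16, adjusted p = 1.0). Thus 1 of the 4 genes was called, where 0.286% of all 12253 genes were (35 genes, with 0.147% called higher). *P2rx7* lost its call whenever 1 of the 6 libraries was left out, with adjusted p between 0.113 and 0.323 and log2 fold changes between 2.08 and 2.47. In these fits 0 to 18 genes of the whole table were called, beside 35 with all libraries.

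Under the replicate block, *P2rx7* (adjusted p = 1.1e-05), *Slco4a1* (0.0017) and *Csgalnact1* (0.0024) were all called higher in 168FARN *Kmt2d* KO cells by edgeR, and *Pla2g5* was not (0.124). The share of all genes called rose with the block to 5.9% (723 genes). With replicates 1 and 2 only, the same 3 genes were called, at log2 fold changes of 2.11, 1.57 and 0.84 and edgeR adjusted p = 1.4e-07, 2.0e-04 and 2.2e-04, where 11% of all genes were. *Pla2g5* then stood at -0.38 with an adjusted p of 0.0740, under the fold threshold. All 3 *Kmt2d* KO libraries of 168FARN were below all 3 WT libraries for *Pla2g5*, the direction opposite to that in *Kmt2c* KO. Of all genes tested in 168FARN, 0.408% had a log2 fold change as high as that of *P2rx7* or higher, 1.36% as that of *Slco4a1*, 4.29% as that of *Csgalnact1* and 87.1% as that of *Pla2g5*.

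In 67NR *Kmt2d* KO cells *Pla2g5*, *P2rx7* and *Csgalnact1* rose and *Slco4a1* did not pass the test. *Pla2g5* rose 9.79-fold, a log2 fold change of 3.29 (SE 0.26, edgeR adjusted p = 3.6e-05). *P2rx7* rose 6.80-fold, or 2.77 on the log2 scale (0.34, adjusted p = 5.0e-04), and *Csgalnact1* 3.55-fold, or 1.83 (0.26, adjusted p = 0.0011). *Slco4a1* had a log2 fold change of 0.07 (0.29, adjusted p = 0.905). These 3 of 4 calls stand beside 25.5% of 13665 genes called in either direction (3484 genes) and 13.9% called higher. The 3 calls held with the block, where 32.7% of all genes were called, with replicates 1 and 2 only, where 35.9% were, and without each library in turn. In the same libraries the epithelial marker sum was lower than in WT and the mesenchymal sum overlapped WT. *Lyz2* was higher, as given above. *Csf1r* had a mean of 0.0581 CPM against 1.40 CPM in WT, where the libraries ranged from 0.165 to 3.67 CPM. The part of these markers in the results was not tested.

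**Figure D2:**
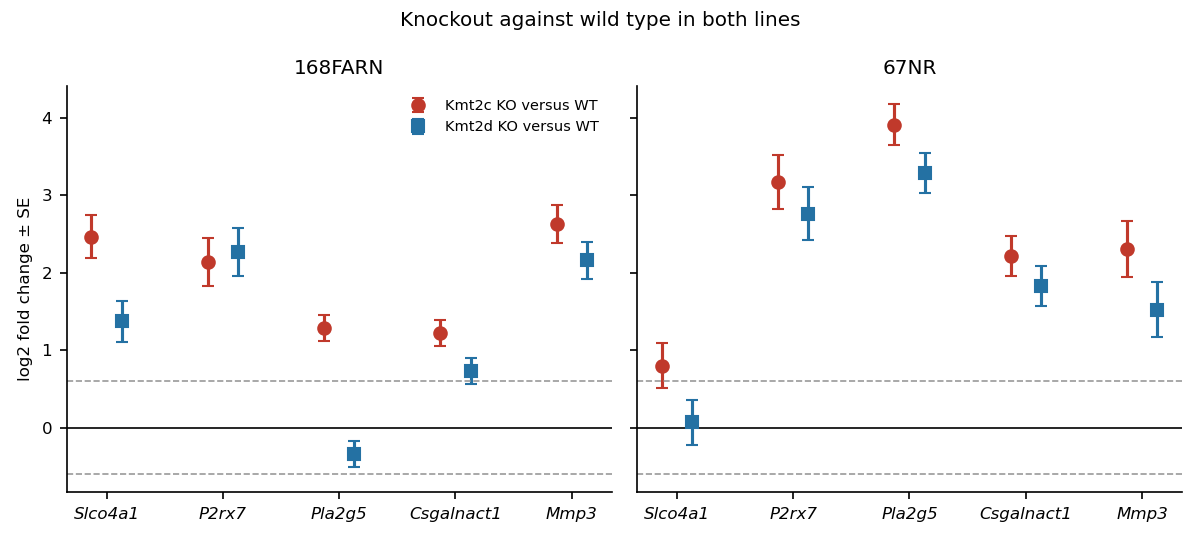
Log2 fold change of each KO against WT from edgeR, with the standard error as the bar, for the 4 genes and *Mmp3*; dashed lines mark the fold threshold of 0.6. The red *Kmt2c* KO points chose the genes, and the blue *Kmt2d* KO points run from -0.34 (*Pla2g5*) to 2.27 (*P2rx7*) in 168FARN and from 0.07 (*Slco4a1*) to 3.29 (*Pla2g5*) in 67NR.

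Whether the *Kmt2d* KO effect differed between the lines was tested as an interaction over all 18 libraries in edgeR. The effect on *Pla2g5* was higher in 67NR by 3.57 on the log2 scale (SE 0.27, adjusted p = 9.2e-07), the effect on *Csgalnact1* by 1.03 (0.31, adjusted p = 0.0575), and the effect on *Slco4a1* was lower in 67NR, by -1.36 (0.40, adjusted p = 0.0533). For *P2rx7* the difference was 0.44 (0.46, adjusted p = 0.723). So 3 of the 4 genes were called, where 10.6% of 13882 genes were. The *Pla2g5* call held in all 12 fits that each left out 1 library. *Slco4a1* lost its call in 8 of them, those without any one of the 168FARN *Kmt2d* KO libraries, 168FARN WT replicate 1 or 2, 67NR *Kmt2d* KO replicate 1 or 2, or 67NR WT replicate 3, and *Csgalnact1* lost it without 67NR *Kmt2d* KO replicate 1 or without replicate 2, with edgeR adjusted p up to 0.172 and 0.1105. With replicates 1 and 2 only, all 4 were called, *P2rx7* with a difference of 0.72 and an edgeR adjusted p of 0.0019, where 32.5% of all genes were.

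WT cells of the 2 lines were compared as well, although each line has its own count table, so line and table cannot be told apart. *Pla2g5* was 41.6-fold lower in 67NR WT, a log2 fold change of -5.38 (SE 0.22, edgeR adjusted p = 4.0e-10). *Csgalnact1* was 3.98-fold lower, or -1.99 (0.23, adjusted p = 4.5e-06). *Slco4a1* was 1.56-fold higher, or 0.64 (0.29, adjusted p = 0.0956), a call that was lost without 168FARN WT replicate 1 or 2, without 67NR WT replicate 1 or 3, and with replicates 1 and 2 only, where 54.3% of all genes were called. It was also lost with DESeq2's size factors, without the filter on low counts and with only the 6 libraries compared, at edgeR adjusted p of 0.104, 0.177 and 0.340. *P2rx7* had a log2 fold change of -0.20 (0.32, adjusted p = 0.668), and its WT ranges overlapped. Of all 13882 genes 39.2% were called between the WT groups.

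The replicates of a group were not equally high. *P2rx7* and *Csgalnact1* were lowest in replicate 3 in 6 of 6 groups, at 0.517 to 0.936 and 0.526 to 0.915 times the mean of replicates 1 and 2. *Slco4a1* went the other way in most groups, being highest in replicate 3 in 4 of 6 groups with ratios of 0.931 to 1.80, and *Pla2g5* showed no common direction (0.892 to 1.30). Set against the WT library of the same number, *P2rx7* in *Kmt2d* KO was higher in every replicate, by 1.95 to 2.69 on the log2 scale in 168FARN and 2.36 to 2.80 in 67NR. *Pla2g5* in 168FARN *Kmt2d* KO was lower in every replicate, by -0.58 to -0.26. *Slco4a1* in 67NR *Kmt2d* KO ran from -0.30 to 0.38, on both sides of 0.

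**Figure D3:**
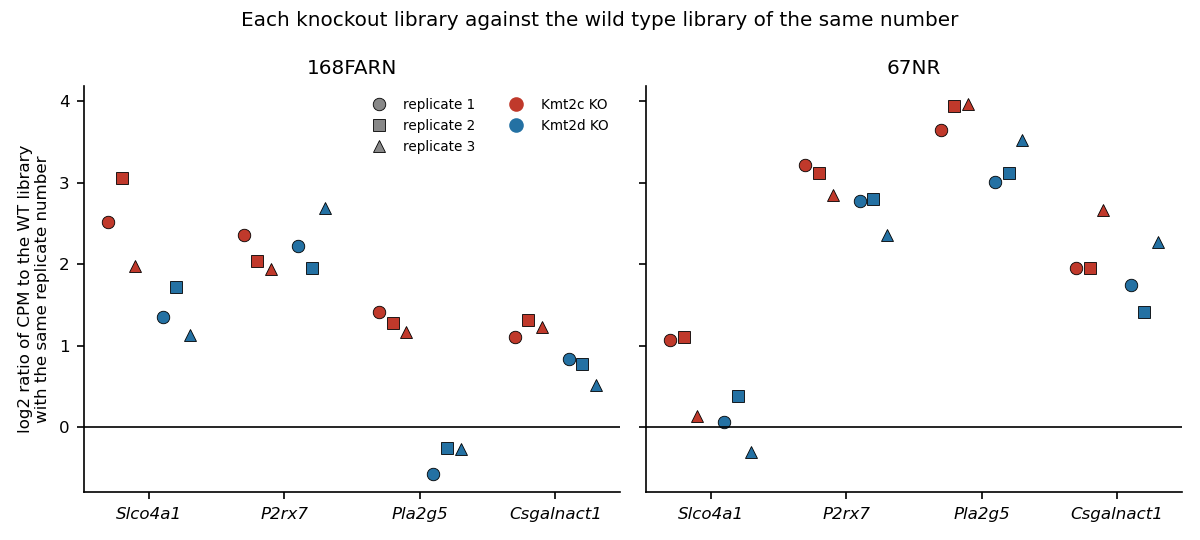
Log2 ratio of CPM in each KO library to the WT library with the same replicate number, by gene and line; red is *Kmt2c* KO, blue *Kmt2d* KO, and shapes are replicate numbers. *Slco4a1* in 67NR *Kmt2d* KO (-0.30 to 0.38) and *Pla2g5* in 168FARN *Kmt2d* KO (-0.58 to -0.26) are the only sets with points below 0.

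Likeness between genes was measured as Pearson's r over the 18 libraries on log2(CPM + 1), after removing each line's mean, among 11988 genes. These r values share libraries and their depth, and they are descriptions. The *Kmt2c* KO and WT libraries among them chose the genes, which favours high r with *Mmp3* and with each other. Of the chosen genes and *Mmp3*, the closest trio was *P2rx7*, *Csgalnact1* and *Mmp3*. Here r was 0.92 for *P2rx7* with *Csgalnact1*, 0.92 for *P2rx7* with *Mmp3* and 0.89 for *Csgalnact1* with *Mmp3*. Among all genes compared, *Mmp3* ranked 3 and *Csgalnact1* 4 for *P2rx7*, but *Mmp3* ranked 68 for *Csgalnact1*. *Pla2g5* had r = 0.87 with *Csgalnact1*, which ranked 73 for it, and 0.70 with *P2rx7*, for which *Pla2g5* ranked 541. *Slco4a1* was closer to *Mmp3* (0.73, rank 29) than to the other 3 (0.54 to 0.55, ranks 198 to 236). Many other genes were thus closer to *Pla2g5* and *Slco4a1*.

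Each gene had its own nearest genes. For *P2rx7* they included *Sema6d* (r = 0.94), a membrane-bound guidance cue, *Mmp3*, *Csgalnact1* and *St3gal1*. For *Csgalnact1* they were *Sema6d* (0.96), *Clec14a*, *Plpp3*, *Hs3st5*, which encodes a heparan sulphate sulphotransferase, and the cytokine gene *Il11*. *Pla2g5* was nearest to *Mark1* (0.97), *Idh2*, *Myo18b*, *Sirpa* and *Cbr3*, and *Slco4a1* to *Sele* (0.84), *Ankrd54*, *Ccdc184*, *Cdk16* and *Msn*. *Sema6d* was shared by 2 of the lists, and *Csgalnact1* was the only one of the 4 genes in another's list. After the replicate numbers were centred as well, 5 of these 20 places were kept.

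The families and pathways of the 4 genes were followed in 8 lists of 118 genes in all, without the 4 themselves. In 168FARN 64 of them were tested, and edgeR called none in either KO, where 0.359% and 0.286% of all genes were called. At an unadjusted p under 0.05, 6 stood in *Kmt2c* KO and 7 in *Kmt2d* KO, and DESeq2 called 1 and 4. Of all 12253 genes DESeq2 called 288 and 248. Under the replicate block 4 were higher and 5 lower in *Kmt2c* KO and 4 higher and 2 lower in *Kmt2d* KO, where 7.23% and 5.9% of all genes were called. With replicates 1 and 2 only, 6 were higher and 7 lower in the former, where 14.5% of all genes were called. In the latter 6 were higher and 3 lower, where 11% of all genes were called. In 67NR 75 were tested, of which 17 were higher and 18 lower in *Kmt2c* KO and 15 higher and 9 lower in *Kmt2d* KO, where 35.3% and 25.5% of all genes were called. Under the block these counts were 20 and 19 in *Kmt2c* KO and 18 and 14 in *Kmt2d* KO. Of all genes 41.3% and 32.7% were then called. With replicates 1 and 2 only they were 24 and 20, and 20 and 17, where 44.2% and 35.9% of all genes were called. Both KO groups of a line share its WT libraries.

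Of the 5 other SLCO transporters tested in 67NR, *Slco3a1* and *Slco1a5* rose and *Slco2a1* and *Slco5a1* fell, in both KO groups. Among all genes 35.3% were called in *Kmt2c* KO and 25.5% in *Kmt2d* KO. *Slco3a1*, a prostaglandin and thyroxine carrier, went from 2.82 ± 0.502 CPM in WT to 49.7 ± 11.4 in *Kmt2c* KO and 36.7 ± 12.8 in *Kmt2d* KO (SD, n = 3), log2 fold changes of 4.22 and 3.77 (edgeR adjusted p = 1.5e-05 and 4.2e-05). *Slco1a5* rose by 2.33 and 1.91 on the log2 scale. *Slco2a1*, the prostaglandin uptake carrier, had log2 fold changes of -0.84 and -0.94. *Slco5a1* had 205 reads over the 3 WT libraries, 0 in *Kmt2c* KO, which is at least 64.3-fold lower against a floor of 3 counts over the group, and 6 in *Kmt2d* KO.

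Of 5 tested genes that handle thyroid hormone, 4 fell in 67NR *Kmt2c* KO, where 17.4% of all genes did, and 2 in *Kmt2d* KO, where 11.6% did. *Dio2*, the deiodinase that activates thyroxine, went from 29.5 ± 20.6 CPM in WT to 0.660 ± 0.0908 and 1.09 ± 0.191 (SD, n = 3), log2 fold changes of -5.39 and -4.69 (edgeR adjusted p = 3.7e-04 and 0.0011). *Slc16a10*, which encodes a carrier of aromatic amino acids and thyroid hormone, fell by 2.29 on the log2 scale in *Kmt2c* KO. With the block 4 were lower in *Kmt2d* KO as well, where 15.4% of all genes were.

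No purine receptor other than *P2rx7* was called higher in 67NR, and 2 of 8 tested fell in both KO groups. Among all genes 17.4% fell in *Kmt2c* KO and 11.6% in *Kmt2d* KO. *P2rx4*, the ATP-gated channel whose gene lies next to *P2rx7*, went from 15.5 ± 1.88 CPM in WT to 7.32 ± 0.829 and 9.03 ± 1.52 (SD, n = 3), log2 fold changes of -1.001 and -0.70 (edgeR adjusted p = 0.0046 and 0.0343). *P2ry2*, a G-protein-coupled ATP and UTP receptor, had log2 fold changes of -2.25 and -1.24. With the block *P2ry4* and *P2ry12* were called higher in each KO, where their unblocked adjusted p was 0.135 and 0.509 in *Kmt2c* KO and 0.107 and 0.271 in *Kmt2d* KO (edgeR).

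The NLRP3 inflammasome acts downstream of *P2rx7* in myeloid cells. Of its genes and the pannexin genes, 5 of 9 tested fell in 67NR *Kmt2c* KO. In *Kmt2d* KO edgeR called none, with 1 at an unadjusted p under 0.05. DESeq2 called 1 there, where it called 3860 of all 13665 genes. Among all genes 17.4% were called lower in *Kmt2c* KO and 11.6% in *Kmt2d* KO. *Panx2*, with a log2 fold change of -5.36, *Il18* with -1.02 and *Panx1*, the ATP release channel, with -2.71 had the smallest p-values (edgeR adjusted p = 0.0078, 0.0139 and 0.0242). The pannexins were low, with 200 *Panx2* reads over the WT libraries against 4 in *Kmt2c* KO, and 164 *Panx1* reads against 26. *Il18* went from 18.8 ± 4.59 CPM in WT to 8.76 ± 1.25 in *Kmt2c* KO and 13.1 ± 3.72 in *Kmt2d* KO (SD, n = 3). With the block 6 were lower in *Kmt2c* KO and 2 in *Kmt2d* KO, where 19.9% and 15.4% of all genes were.

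Of the other secreted phospholipases A2 and their receptor gene, 3 were tested in 67NR, of which 2 rose in *Kmt2c* KO and 1 in *Kmt2d* KO. Among all genes 17.9% and 13.9% rose. *Pla2g1b* rose by 3.67 and 3.42 on the log2 scale in 67NR (edgeR adjusted p = 0.0052 and 0.0113), from 8 reads over the 3 WT libraries to 92 in *Kmt2c* KO and 60 in *Kmt2d* KO. *Pla2g2e*, whose gene lies 14.5 kb from *Pla2g5*, rose by 2.32 in *Kmt2c* KO (adjusted p = 0.0187) and had 0.98 in *Kmt2d* KO.

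The next list holds enzymes that turn arachidonic acid into eicosanoids, with their receptors. In 67NR 4 rose and 1 fell of 13 tested in *Kmt2c* KO, and 5 rose in *Kmt2d* KO, where 35.3% and 25.5% of all genes were called. *Alox5ap*, which presents arachidonic acid to 5-lipoxygenase for leukotriene synthesis, went from 1.03 ± 0.537 CPM in WT to 31.5 ± 1.08 and 18.4 ± 3.08 (SD, n = 3), log2 fold changes of 5.03 and 4.25 (edgeR adjusted p = 1.3e-05 and 4.4e-05). *Ptges*, the prostaglandin E synthase, rose by 3.06 and 2.11. *Ptgs1*, a cyclooxygenase, rose by 1.42 in *Kmt2c* KO and the prostaglandin receptor gene *Ptger4* by 1.504 in *Kmt2d* KO. *Ptgds* fell by 2.98 in *Kmt2c* KO.

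Of 18 chondroitin sulphate genes tested beside *Csgalnact1* in 67NR, 5 rose and 1 fell in *Kmt2c* KO and 4 rose and 1 fell in *Kmt2d* KO, shares near the 35.3% and 25.5% of all genes. *Chst3*, a chondroitin 6-sulphotransferase, went from 0.526 ± 0.185 CPM in WT to 6.86 ± 0.611 and 3.65 ± 0.190 (SD, n = 3), log2 fold changes of 3.80 and 2.88 (edgeR adjusted p = 2.4e-05 and 1.7e-04). *Chst15*, which adds a further sulphate to the chain, rose by 4.07 and 3.65, and *Chst12* had -0.94 and -1.02. *Chst11*, a 4-sulphotransferase, rose by 0.92 in *Kmt2c* KO and *Dsel* by 0.76 in *Kmt2d* KO. *Csgalnact2*, the closest relative of *Csgalnact1*, ranged over 66.2 to 132 CPM in 67NR WT, 129.5 to 152 in *Kmt2c* KO and 132 to 195 in *Kmt2d* KO, with a call in *Kmt2d* KO alone (log2 fold change 0.74, adjusted p = 0.0705), though the difference between the KO groups was not tested.

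The enzymes of heparan sulphate, the alternative chain on the same linker, moved in both directions in 67NR. Of 14 tested, 4 were higher and 3 lower in *Kmt2c* KO, where 35.3% of all genes were called. In *Kmt2d* KO 3 were higher and 2 lower, where 25.5% were called. *Hs3st3b1*, a 3-O-sulphotransferase, went from 0.206 ± 0.0289 CPM in WT to 10.2 ± 0.491 and 5.998 ± 0.242 (SD, n = 3), log2 fold changes of 5.70 and 4.93 (edgeR adjusted p = 2.0e-06 and 5.2e-06). *Ndst4* and *Ndst3*, which encode N-deacetylase/N-sulphotransferases, rose by 4.56 and 4.19 in *Kmt2c* KO and by 4.17 and 3.75 in *Kmt2d* KO. *Hs3st1* had log2 fold changes of -3.25 and -2.36, *Hs6st1* -1.71 and -1.44, and *Hs2st1* -0.61 in *Kmt2c* KO.

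**Figure D4:**
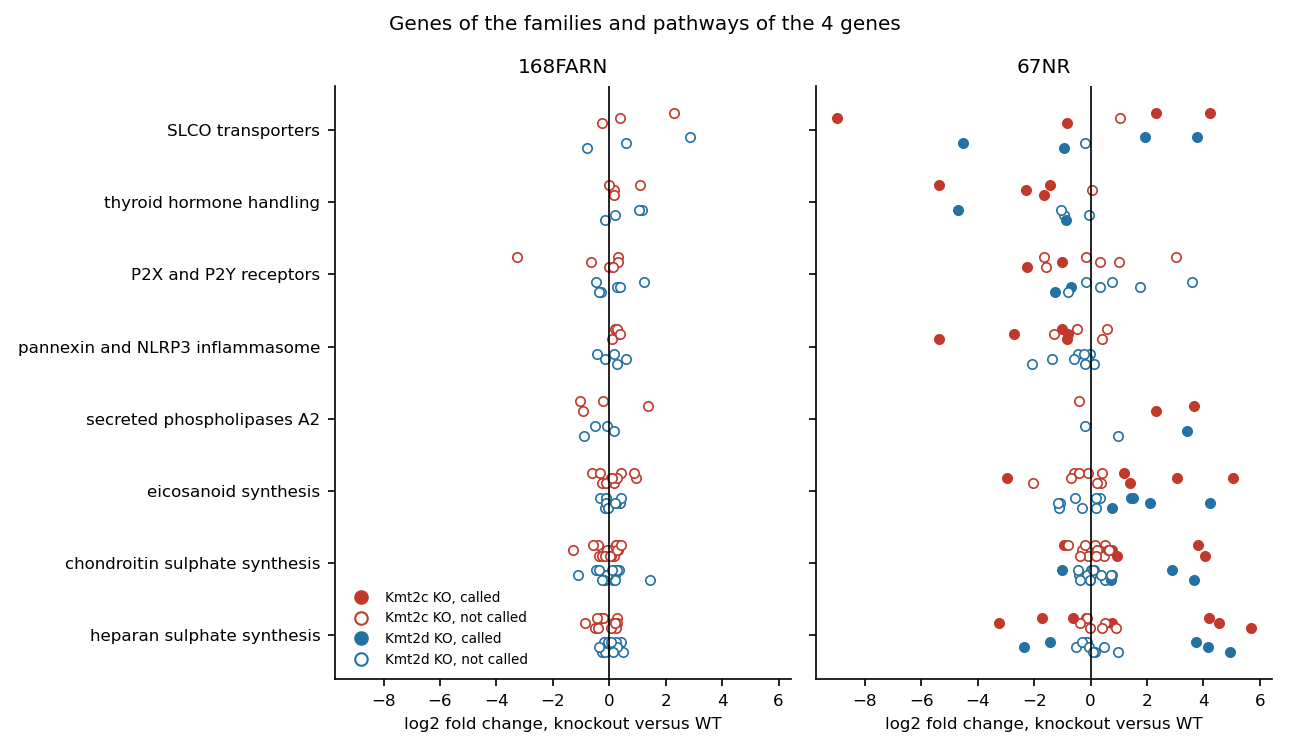
Log2 fold changes of the tested genes of 8 lists around the 4 genes in 168FARN and 67NR; red is *Kmt2c* KO, blue *Kmt2d* KO, filled points are called and open points are not, and points are spread vertically only to be seen. No point is filled in 168FARN, and the lowest point in 67NR is *Slco5a1*, a fitted value that rests on 0 reads in *Kmt2c* KO and gives no size, while in 67NR *Hs3st3b1* reaches 5.70 and *Alox5ap* 5.03 in *Kmt2c* KO.

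The 5 annotated genes on either side of each of the 4 were followed too, 40 in all. In 168FARN 22 were tested and neither edgeR nor DESeq2 called any in either KO (0 and 1 at an unadjusted edgeR p under 0.05). With the block 2 were called in each KO, where 7.23% of all genes were in *Kmt2c* KO and 5.9% in *Kmt2d* KO. In 67NR 23 were tested, of which 2 were higher and 3 lower in *Kmt2c* KO and 1 higher and 3 lower in *Kmt2d* KO, where 35.3% and 25.5% of all genes were called. Their median log2 fold changes in 67NR were -0.06 and -0.07, beside -0.02 and -0.02 over all genes tested.

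Around *Slco4a1* the nearest tested gene was *B230312C02Rik*, 70.4 kb away, which rose by 4.92 and 4.71 on the log2 scale in 67NR (edgeR adjusted p = 6.9e-05 and 1.5e-04), from 0.235 ± 0.128 CPM in WT to 6.70 ± 1.94 and 5.81 ± 0.684 (SD, n = 3). In 168FARN it had 1.69 and 1.40, and was called with the block (adjusted p = 0.0017 and 0.0042). On the other side, *Ogfr*, 114 kb away, had 0.26 and -0.02 in 67NR and 0.05 and -0.04 in 168FARN.

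Around *P2rx7*, 10 of 10 neighbours were tested. *P2rx4*, 16.2 kb to the right, fell in 67NR as given above, and *Ift81*, 29.4 kb to the left, had log2 fold changes of -0.42 and -0.27. *Anapc5* fell by 0.71 in *Kmt2d* KO (edgeR adjusted p = 0.0243). Around *Pla2g5*, 5 of the 10 neighbours are secreted phospholipase A2 genes, and only *Pla2g2e* and *Otud3* had enough reads to test. *Otud3* had 0.48 and 0.03.

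Around *Csgalnact1* the nearest tested genes were *Sh2d4a*, 9.09 kb away, with log2 fold changes of -2.77 in *Kmt2c* KO (edgeR adjusted p = 0.0030) and -0.66 in *Kmt2d* KO (0.380, with the block 0.0112), and *Ints10*, 58.8 kb away, with 0.06 and -0.00028. *Slc18a1* fell by 2.92 and 2.10. In 168FARN *Sh2d4a* had 0.87 in *Kmt2c* KO (edgeR adjusted p = 1.0, with the block 0.0186 and called higher) and -0.0084 in *Kmt2d* KO.

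**Figure D5:**
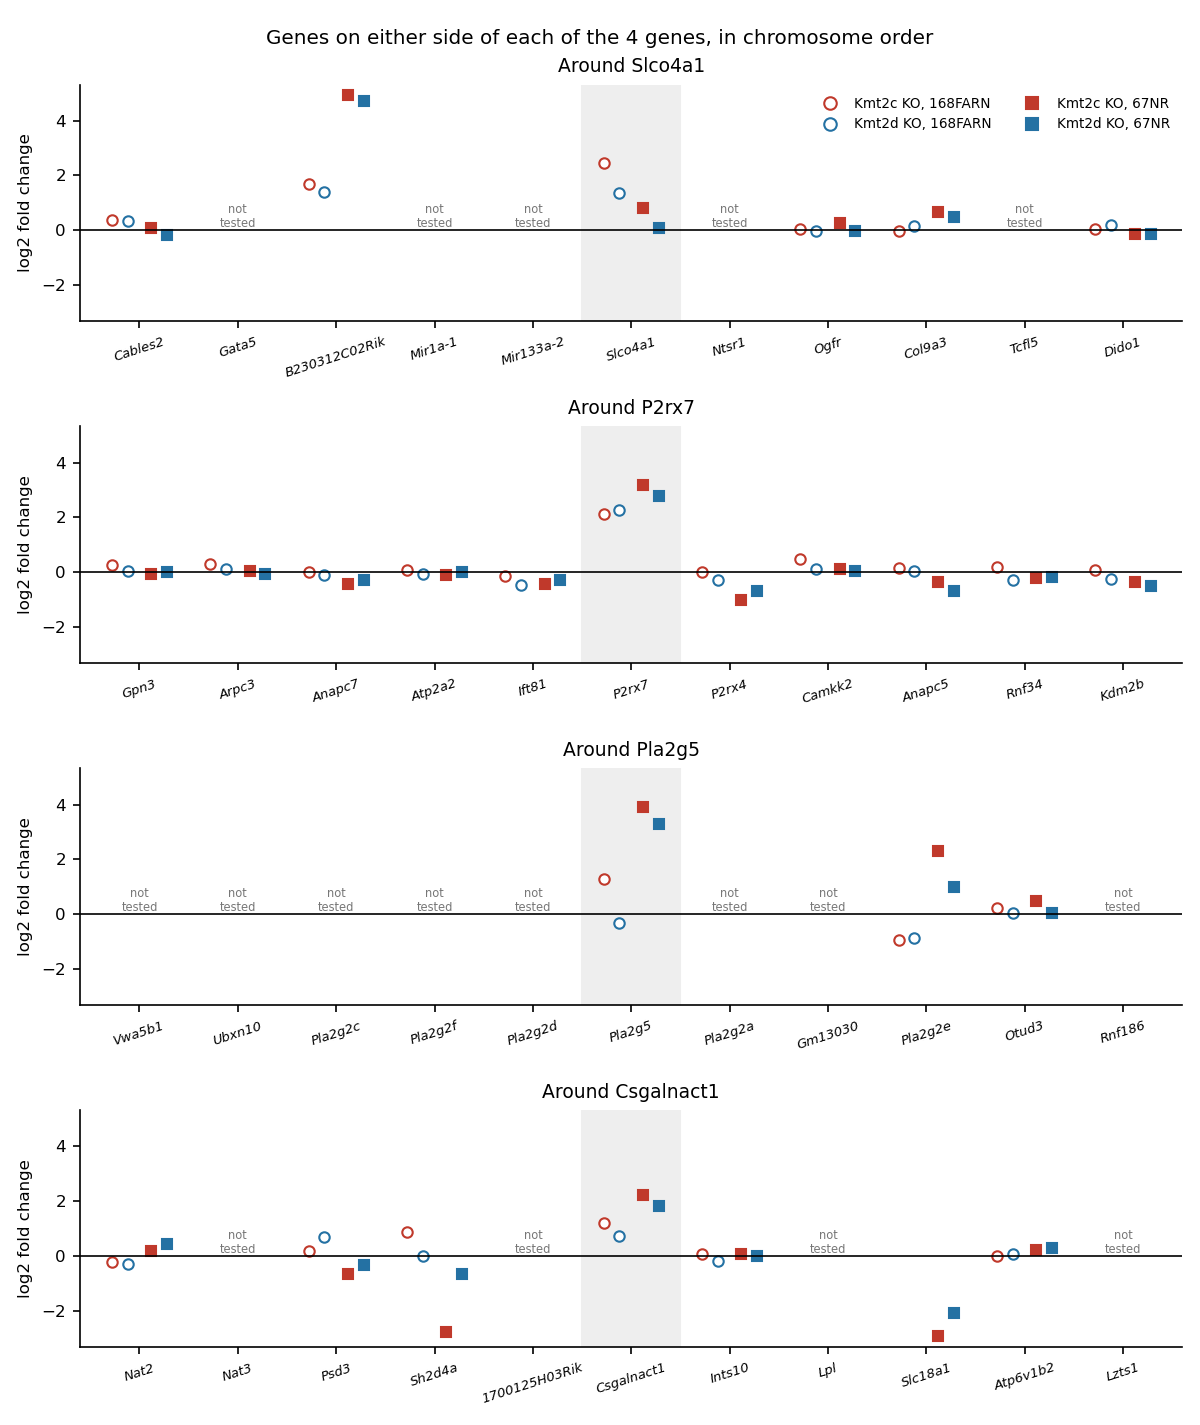
Log2 fold change against WT of the 5 annotated genes on either side of each gene (shaded column), in chromosome order and not to scale; open circles are 168FARN, filled squares 67NR, red *Kmt2c* KO and blue *Kmt2d* KO. *B230312C02Rik* beside *Slco4a1* reaches 4.92 in 67NR, and *P2rx4* beside *P2rx7* lies at -1.001 and -0.70.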

How the data were processed

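RNA-seq of 18 libraries was analysed, 3 per genotype and line. The authors used a stranded mRNA kit, mapped reads with STAR (VIPER pipeline, build mm9) and deposited raw read counts per gene symbol. The counts were not normalized, each line has its own table, and whether counting used strand is not given in the sources used here. Counts of 14359760 to 79251530 per library set the precision.

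Counts were fitted with edgeR 4.0.16 (quasi-likelihood, robust, TMM factors, low counts filtered by group) in R 4.3.3, by line on 9 libraries with genotype as the factor, and on 18 libraries for differences between lines. A call needed an adjusted p under 0.1, over all genes fitted, and an absolute log2 fold change over 0.6. CPM values use TMM factors over the 18 libraries, and a SE is the log2 fold change over the square root of its F statistic. For *Slco4a1*, *P2rx7*, *Pla2g5* and *Csgalnact1* no p is given for *Kmt2c* KO ratios. The labels give only replicate numbers. The paper's reporting summary sets replicates of a cell line apart by a passage. The p-values therefore measure the spread between such collections, part of which may be technical. A KO effect cannot be told apart from other differences between the cell pools compared. The scripts were tested on simulated data.

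The genes, lists and tests were chosen with earlier results of these data known. Lists of families and pathways came from general knowledge, and up to 3 called genes per direction with the smallest p-values are named from each, with called and nearest neighbours and the 5 most alike genes of each of the 4. *Pla2g2a*, *1700125H03Rik*, *Csgalnact2*, *P2ry4*, *P2ry12*, *Ogfr*, *Otud3* and the cell type markers are named outside that rule, and 2 genes that it would name are not reported here.

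Deviations from group means correlated at 0.873 to 0.927 (168FARN) and 0.656 to 0.833 (67NR) between replicate 3 libraries. Same-numbered replicates 1 or 2 gave 0.743 to 0.838 (168FARN) and 0.491 to 0.619 (67NR), different numbers -0.890 to 0.815 and -0.777 to 0.734. By this check the replicate 3 libraries deviated together. It does not show that numbers 1 and 2 pair the samples, since some different numbers correlated as highly or more so. The authors treated the time of collection as a batch when drawing heatmaps.

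Alternatives were DESeq2 1.42.0, its size factors, no filter on low counts, the replicate block, only the 6 libraries compared, an adjusted p under 0.05 with no fold threshold, and each library left out. Replicates 1 and 2 only was chosen after seeing the data. Positions come from GENCODE's mm9 annotation, and 20706 of 24333 symbols were found there. Upstream sequences come from RefSeq's table on GRCm38.p6, where 3 of the 4 genes were found and *Csgalnact1* was not.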

Additional observations from a re-analysis of the deposited data

Results flagged for a closer look

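For 3 of the 4 genes the effect of *Kmt2d* KO differed between the lines by edgeR's interaction test over 18 libraries, where 10.6% of all genes did (28.4% under the replicate block). For *Pla2g5* the log2 effect was higher in 67NR than in 168FARN by 3.57 (SE 0.27, adjusted p = 9.2e-07), with 3 of 3 *Kmt2d* KO libraries above WT in 67NR and 3 of 3 below WT in 168FARN, and the call held without each of 12 libraries. For *Csgalnact1* it was higher in 67NR by 1.03 (0.31, adjusted p = 0.0575), with all *Kmt2d* KO libraries above WT in both lines, and the call was lost without 2 of the 12 libraries, each in turn. For *Slco4a1* the difference was -1.36 (0.40, adjusted p = 0.0533), with 3 of 3 *Kmt2d* KO libraries above all WT libraries in 168FARN and none above the highest WT library in 67NR, and the call was lost without 8 of the 12 libraries, each in turn. Each line has its own count table, and line and table cannot be told apart.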

How the results depend on the processing

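In 168FARN *Kmt2d* KO, 1 of the 4 genes was called, 3 with DESeq2, 3 with the replicate block, 3 with replicates 1 and 2 only (chosen after seeing the data), 0 with only the 6 libraries compared, and 0 to 0 when 1 library was left out. *Slco4a1* and *Csgalnact1* were the 2 genes added by the block. In the whole table, only the 6 libraries compared gave 0 calls against 35, with 546 genes at an unadjusted edgeR p under 0.05. More genes were called with DESeq2 (248), with the block (723) and with replicates 1 and 2 only (1346). Leaving out 1 library gave 0 to 18. Without 1 library each, 3 to 3 genes were called in 67NR *Kmt2d* KO, 1 to 3 in the difference between lines, where 1 remained at an adjusted p under 0.05 with no fold threshold, and 2 to 3 between WT groups. In 67NR *Kmt2c* KO, 3 to 4 of the 4 had a log2 fold change over 0.6. The *Slco4a1* value in 67NR *Kmt2d* KO changed sign, to -0.13 (leaving out WT replicate 2), -0.00082 (WT replicate 1) and -0.02 (*Kmt2d* KO replicate 3), while the highest value was 0.40. Of the 20 most alike genes, 5 were kept after the replicate number was centred. The replicate block changed no other call of the 4 genes. Under settings other than leaving out 1 library, 255 counts of list or neighbour genes stayed within 1.5 times and 57 did not. The cause was not tested. Counts of 21 to 50 reads limit *Pla2g5* in 67NR WT.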

Other observations

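WT cells of the lines also differed in genes that act beside the 4, and the genes named here were chosen after their values were seen. Of 9 tested pannexin and inflammasome genes, 8 were higher in 67NR WT and 1 lower, where 39.2% of all genes were called in either direction by edgeR. Only 5 of the 9 had enough reads to be tested within 168FARN. The others passed the filter through 67NR, which favours a higher value there. *Il18* had a log2 fold change of 3.71 and *Casp4* of 2.95 (edgeR adjusted p = 7.7e-05 and 0.0206). Of 4 tested secreted phospholipase A2 and receptor genes besides *Pla2g5*, 3 were lower in 67NR WT, among them *Pla2g2e* at -3.26 and *Pla2r1*, which encodes a receptor for secreted phospholipases, at -4.64. Within 67NR only 3 of these 4 were tested, and *Pla2r1* held 26 reads over the 67NR WT libraries. *Hs3st1* had no read in any 168FARN library and stood at 54.9 ± 9.93 CPM (SD, n = 3) in 67NR WT, whereas *Hs3st3b1* stood at 15.9 ± 1.6999 CPM in 168FARN WT and 0.206 ± 0.0289 in 67NR WT. Each line has its own count table, and line and table cannot be told apart.

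Within each line, *P2rx7* and *Pla2g5* had r = 0.24 over the 9 libraries of 168FARN and 0.93 over the 9 of 67NR, while *P2rx7* and *Csgalnact1* had 0.84 and 0.97. These values are descriptions, since genotype and replicate number are shared by the libraries. Some of these libraries also served to choose the genes.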
